A study of Homo sapiens with 6 samples.

Results

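Linker histone H1 genes and replication-dependent core histone genes were examined in Cal27, an established human cell line derived from a tongue squamous cell carcinoma. Members were the protein-coding genes whose symbols begin with H1-, H2AC, H2BC, H3C or H4C. GENCODE release 44 lists 74 of them, and 38 had a row in the deposited table of 57820 genes under their Ensembl identifier, against 36 that had none. Of the 38, 26 passed edgeR's filter on low counts (minimum count 10) and were tested, among 16396 tested genes. By class, 8 of 10 H1 genes with a row were tested, 4 of 8 H2A genes, 8 of 11 H2B genes, 2 of 5 H3 genes and 4 of 4 H4 genes. Of the 12 untested members, 8 had 0 counts in every library (H1-8, H2AC1, H2AC20, H2AC21, H2BC21, H3C13, H3C14 and H3C15), and H1-7, H2AC7, H2BC1 and H2BC18 had at most 1 count in any library.

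Stranded libraries from total RNA were read in pairs for 3 groups of 2 biological replicates each, all of the parental Cal27 line and all labelled as batch 1. The CRNN group received lentivirus that carries cornulin, a protein of the differentiating squamous epithelium encoded by CRNN, and the GFP group received the GFP control vector. Both were transduced with 8 µg/ml polybrene and harvested at 48 h. The untreated group is named only as untreated Cal27 cells, and no mock transduction or harvest time is given for it. The labels name neither the promoter of the constructs nor any selection of transduced cells, and they do not say that the replicates were separate cultures. P-values therefore measure the spread between these libraries, which may be technical. In bulk RNA, fewer cells with a transcript and less of it per cell cannot be told apart.

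Replication-dependent histone genes are switched on together as cells enter S phase, when new DNA has to be packed into nucleosomes made of H2A, H2B, H3 and H4, with H1 bound at the linker. Most of their mRNAs have no poly(A) tail. They end in a short stem-loop that the stem-loop binding protein SLBP holds through processing, translation and decay, so they are best seen in libraries that do not select poly(A). H1-10 is a linker variant whose mRNA is polyadenylated and which is made outside S phase, and H1-6, H1-7, H1-8, H2AC1 and H2BC1 are known mainly from germ cells.

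The label of the gene family was checked against the 3′ ends of the transcripts. The stem-loop was searched, on the transcript strand only, as a 16-base pattern. It began with GG, 3 bases of C or T and TT, followed by 2 free bases and 1 base other than G. It ended with A, 3 bases of A or G, and CC. This pattern was found in the last 40 bases of the GENCODE transcript in 68 of 74 members (91.9%) and in 2 of 19972 other protein-coding genes (0.0100%). Over the whole transcript 69 members had it, and those without it included H1-10, H1-7, H1-8 and H2BC12L. Of those with a row in the table, 33 of 38 had it. The following 3′ ends are from GRCh38, read 5′ to 3′ along each gene's own strand, with both stem arms and the loop in capitals. They are shown because they include the genes on which the comparisons turn and 1 or more genes of each class.
H1-3: taaacGGCTCTTTTCAGAGCCaccca
H2AC11: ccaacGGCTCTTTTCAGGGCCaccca
H2AC25: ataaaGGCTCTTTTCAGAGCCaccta
H2BC11: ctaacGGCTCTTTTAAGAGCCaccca
H2BC26: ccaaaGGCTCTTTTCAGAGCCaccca
H3C4: ccaaaGGCTCTTTTCAGAGCCaacca
H4C3: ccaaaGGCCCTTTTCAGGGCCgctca
H4C16: caaaaGGCCCTTTTCAGGGCCccca
They lie at chr6:26234212-26234237 on the minus strand, chr6:27133510-27133535 on the plus strand, chr1:228457364-228457389 on the minus strand, chr6:27132316-27132341 on the minus strand, chr1:228458533-228458558 on the plus strand, chr6:26196784-26196809 on the minus strand, chr6:26104312-26104337 on the plus strand and chr12:14770720-14770744 on the minus strand, in the same order. All 15 H4 genes had the 5′ stem arm GGCCCT, and none of the 53 members with the arm GGCTCT was an H4 gene. The commonest form, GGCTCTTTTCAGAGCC, occurred in 40 members, followed by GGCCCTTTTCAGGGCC in 10 and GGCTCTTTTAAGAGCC in 9. All 6 stem positions form G-C or A-U pairs in 67 of the 69 members with a match.

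The promoters also differed by class. RefSeq promoter windows (GRCh38.p14, 250 bases before to 50 after the start) were matched for 67 members and searched on both strands. The octamer ATTTGCAT, known from H2B promoters, was present in 14 of 18 H2B windows (77.8%), 11 of 16 H2A windows (68.8%), 1 of 11 H3 windows (9.09%) and 0 of 9 H1 windows, against 1.80% of all 27305 promoters. Most of the H2A matches are the same sites as those of a neighbouring H2B gene, because windows overlap and both strands were searched. The H3 match, in H3C4, is the site also counted for H2AC7 and H2BC7. The H1 box AAACACA was present in 7 of 9 H1 windows (77.8%) and in 5.76% of all promoters. CCAAT was present in 83.6% of the members and 35.7% of all promoters, and TATAAA in 64.2% and 11.95%. By class, CCAAT was in only 3 of 13 H4 windows (23.1%), but in 8 of 9 H1 windows and in every H2A, H2B and H3 window. The boxes of the 4 most abundant H1 genes and the octamer of H2BC11 are shown on the strand of the gene, with the motif in capitals.
H1-2: gaggtggaacAAACACAacttgggagc
H1-3: aaggggcaacAAACACAgcagcgcggt
H1-4: gaggtgtaacAAACACAactcgggatc
H1-5: gaggactaacAAACACAatttgggagt
H2BC11: tcttcaccttATTTGCATaagcgattct
Their places are chr6:26056573-26056599 on the minus strand, chr6:26235090-26235116 on the minus strand, chr6:26156202-26156228 on the plus strand, chr6:27867689-27867715 on the minus strand and chr6:27132825-27132852 on the minus strand. In the H1 genes the box shown began 117 bases before the start in H1-4 and H1-5 and 119 bases before it in H1-2 and H1-3. H1-2 and H1-5 each hold another match that is not shown. It begins 242 bases before the start in H1-2, on the other strand, and 226 bases before it in H1-5. A match is a string in this window and no evidence of binding.

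Total counts per library ranged from 11817105 in GFP replicate 2 to 28041227 in untreated replicate 1, so that 3 counts correspond to 0.254 and 0.107 CPM. CPM are counts per 1000000 counts of the library, with library sizes scaled by TMM. The transgene followed the labels: CRNN stood at 964 and 1028 CPM in the CRNN libraries, at 3.06 and 2.55 in the GFP libraries and at 3.51 and 2.08 in the untreated libraries. In the CRNN libraries, counts of the endogenous gene and of the construct cannot be told apart. CRNN rose against GFP by a log2 fold change of 8.46 (SE 0.43; edgeR quasi-likelihood test, adjusted p = 2.24e-04), and it did not pass without GFP replicate 1 or without GFP replicate 2. Squamous markers summed to between 4200 and 6285 CPM, fibroblast markers to between 4.04 and 9.50, immune markers to between 5.87 and 9.47, and endothelial markers to between 8.15 and 53.0, the highest in untreated replicate 1. Genes followed GC content differently in the GFP libraries: Spearman's rho was 0.64 in replicate 1 and -0.39 in replicate 2 (11532 genes, which share each library). The tested members had a median GC content of 58.3% and a median length of 499 bases, against 48.7% and 2770.5 bases over all tested genes.

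Histone transcripts were abundant in every library. Summed over the members they came to 10045 and 8547 CPM in the CRNN libraries, 12483 and 6095 in the GFP libraries, and 5112 and 7772 in the untreated libraries. The CRNN libraries lay between the GFP libraries and above both untreated ones. Group means were 9296 ± 1060 CPM in CRNN (SD, n = 2), 9289 ± 4517 in GFP (SD, n = 2) and 6442 ± 1880 in untreated cells (SD, n = 2). H1 genes made up 33.0% to 39.1% of the sum in a library, H2B genes 29.6% to 37.3%, H2A genes 13.0% to 15.3%, H4 genes 9.45% to 10.5% and H3 genes 6.30% to 7.36%. The lowest H1 share and the highest H2B share were both in untreated replicate 1. These shares cover only members with a row.

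**Figure D1:**
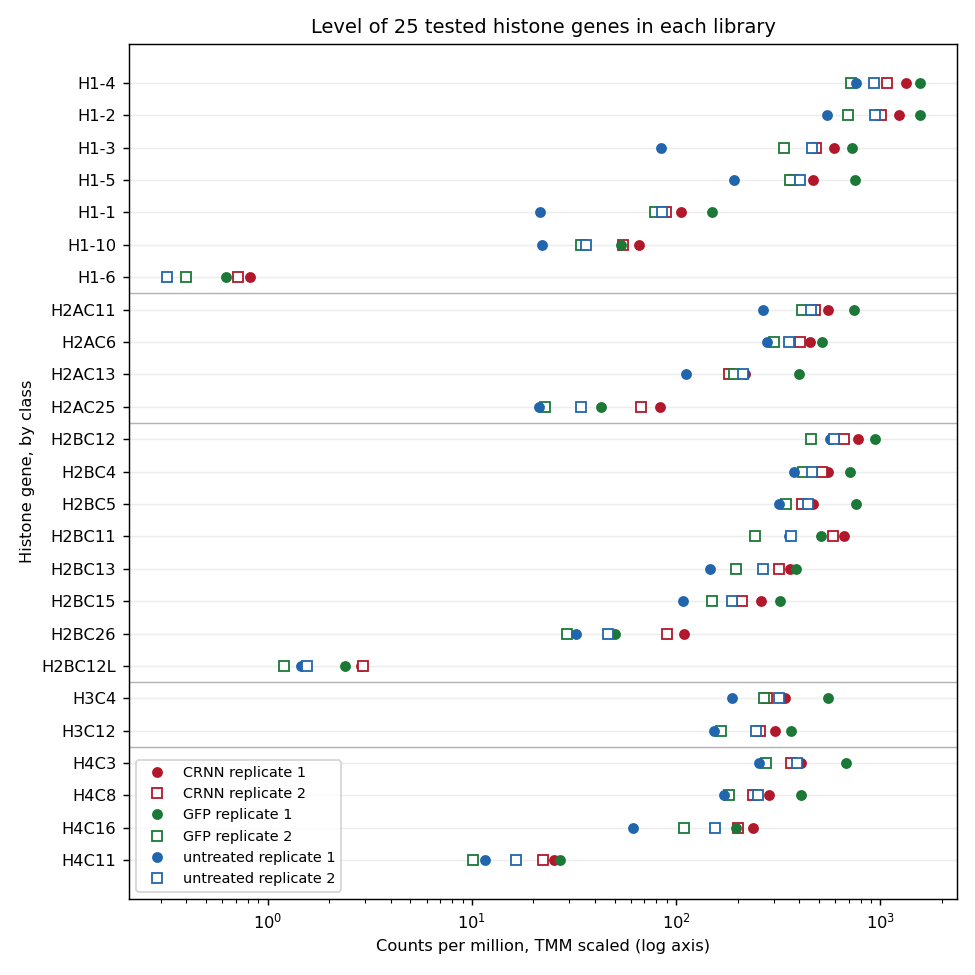
Level of 25 of the 26 tested histone genes in the 6 libraries, in TMM-scaled CPM on a log axis, grouped by class and ordered by mean within it. GFP replicate 1 is the rightmost point for 18 genes and untreated replicate 1 the leftmost for 19 of those drawn, counting H1-6, which had no count there and so has no point.

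Per kilobase of transcript, the levels of the members spanned a wide range. H1-2 (1366 CPM per kb), H2BC12 (1350) and H1-4 (1349) were highest over the 6 libraries, followed by H2BC4 (1104), H2AC11 (986) and H4C3 (980). H1-2 ranged from 747 to 2135 CPM per kb between libraries, H2BC12 from 921 to 1911 and H1-4 from 910 to 1982, so that the order among these genes lies within their spread. At the other end stood H2BC12L, an H2B gene on chromosome 21, with 4.42 CPM per kb, and H1-6, the testis linker histone, with 0.661. H1-10, a linker variant without a stem-loop, stood at 29.4 CPM per kb, lower than the main S-phase H1 genes.

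Position split the members as well. Of the 23 members with a row in the chromosome 6 cluster (chr6:25723397-27893106), 20 were tested. All 7 members with a row in the chromosome 1 cluster (chr1:149782689-149887965) had at most 1 count in any library. The neighbouring genes SF3B4 and BOLA1 had 441 to 938 and 4 to 22 counts per library. Some of these have near-identical copies: 100% of the 50-base words of H3C15, 99.2% of those of H3C14 and 74.0% of those of H2BC18 occur in another histone gene, and reads of such words cannot be assigned to 1 gene. In H2BC21 and H2AC21, also at 0 counts, the share was 8.00% and 1.56%, and in H3C13 and H2AC20, at 0 as well, 71.9% and 23.4%. Whether the 0 counts come from a lack of transcript or from mapping and annotation was not tested. Among tested members the median share was 1.29%, and 12 had none. The highest shares were those of H4C11 (92.1%), H2AC13 (63.5%), H2BC12 (57.2%) and H2BC12L (51.0%), whose values are uncertain for this reason. In 14 of the 26 another annotated gene overlaps the gene. For example, H1-6 and H4C3 lie within the annotated span of H2BC4, and the strand setting of the counting is not given in the sources used here.

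In CRNN against GFP, the comparison of the cornulin construct with its vector control, no histone gene passed. By edgeR's quasi-likelihood test with Benjamini-Hochberg adjustment over all 16396 genes, 0 of 26 members were higher and 0 lower, where 0.0183% of all genes were higher (3 genes) and 0% lower. At an unadjusted p under 0.05, 3 members were higher (1.49% of all genes) and 0 lower (2.90%). DESeq2 and limma-voom also called 0 members, with 3 and 4 of them at an unadjusted p under 0.05 in either direction, against 3.56% and 4.44% of all genes. The median log2 fold change of the members was 0.05 against -0.00 over all tested genes, and it was -0.03 after a correction for GC content and length. Values above 0 were found for 15 of the 26, against 49.9% of all genes. Both numbers rested on the GFP libraries: without GFP replicate 1 the median was 0.68 and 26 of 26 were above 0, and without GFP replicate 2 it was -0.36 and 8 of 26 were.

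The largest differences were those of 2 neighbouring genes on chromosome 1, outside its main histone cluster, H2AC25 and H2BC26, which encode an H2A and an H2B. H2BC26 (chr1:228458103-228463104) had 109 and 89.7 CPM in the CRNN libraries, 50.2 and 29.2 in the GFP libraries and 32.2 and 46.6 in the untreated libraries. Both CRNN libraries lay above the other 4. Against GFP its log2 fold change was 1.32 (SE 0.34), or 2.50-fold, with an unadjusted p of 0.00384 and an adjusted p of 0.999 by edgeR.

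H2AC25 (chr1:228434777-228457873) had 83.6 and 67.4 CPM with CRNN, 42.9 and 22.7 with GFP, and 21.4 and 34.3 without virus. Again the CRNN libraries did not overlap with either control group, while the GFP and untreated libraries overlapped. Its log2 fold change was 1.20 against GFP (SE 0.37; unadjusted p = 0.0109, adjusted p = 0.999 by edgeR). Without GFP replicate 1 the values of H2AC25 and H2BC26 were 1.74 and 1.78, and without GFP replicate 2 they were 0.84 and 1.01, none of them past the threshold. Of the 50-base words of H2BC26, 33.7% also occur in another histone gene, and of those of H2AC25, 1.08%.

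The starts of these genes lie back to back with 229 bases between them, an arrangement shared by H2A and H2B genes elsewhere in the family. Within 1000 bases, 14 pairs of members were divergent, and in 4 of them both genes were tested. The 14 include H3C12 with H2BC17 and H3C7 with H2BC9, an H3 and an H2B gene each. The others are an H2A with an H2B gene, and H2BC17 is also counted with H2AC17. The interval between H2AC25 and H2BC26 is shown because both of its genes were highest in the CRNN libraries, with the CCAAT matches of either strand in capitals (chr1:228457874-228458102, plus strand, GRCh38.p14).
H2AC25 to H2BC26: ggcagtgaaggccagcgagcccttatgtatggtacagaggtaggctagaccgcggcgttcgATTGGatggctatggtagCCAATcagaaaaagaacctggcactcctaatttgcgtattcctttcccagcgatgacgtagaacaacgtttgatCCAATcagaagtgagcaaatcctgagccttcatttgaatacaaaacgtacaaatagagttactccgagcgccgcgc
It holds 3 CCAAT matches and no ATTTGCAT, TATAAA or AAACACA. The interval between H2BC11 and H2AC11, of 247 bases, is set beside it with the same motifs in capitals (chr6:27132796-27133042, plus strand, GRCh38.p14).
H2BC11 to H2AC11: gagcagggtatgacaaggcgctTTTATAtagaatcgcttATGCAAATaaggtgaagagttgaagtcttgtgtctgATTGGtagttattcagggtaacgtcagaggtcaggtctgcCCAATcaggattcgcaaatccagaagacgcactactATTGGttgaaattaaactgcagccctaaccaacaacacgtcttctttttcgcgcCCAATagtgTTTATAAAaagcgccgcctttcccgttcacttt
It holds the octamer near H2BC11 and matches to TATAAA near both starts.

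In the other 3 pairs the differences from GFP were opposite in sign between partners, though only those of H2BC11 and H2AC13 exceeded their standard errors, and without GFP replicate 1 all 6 were above 0. H2BC11 had a log2 fold change of 0.72 against GFP (SE 0.37) where its partner H2AC11 had -0.16 (SE 0.38). H2BC13 had 0.23 (SE 0.40) and H2AC13 -0.58 (SE 0.42). H2BC4 had -0.07 (SE 0.32) and H2AC6 0.06 (SE 0.33). No difference between partners was tested.

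**Figure D2:**
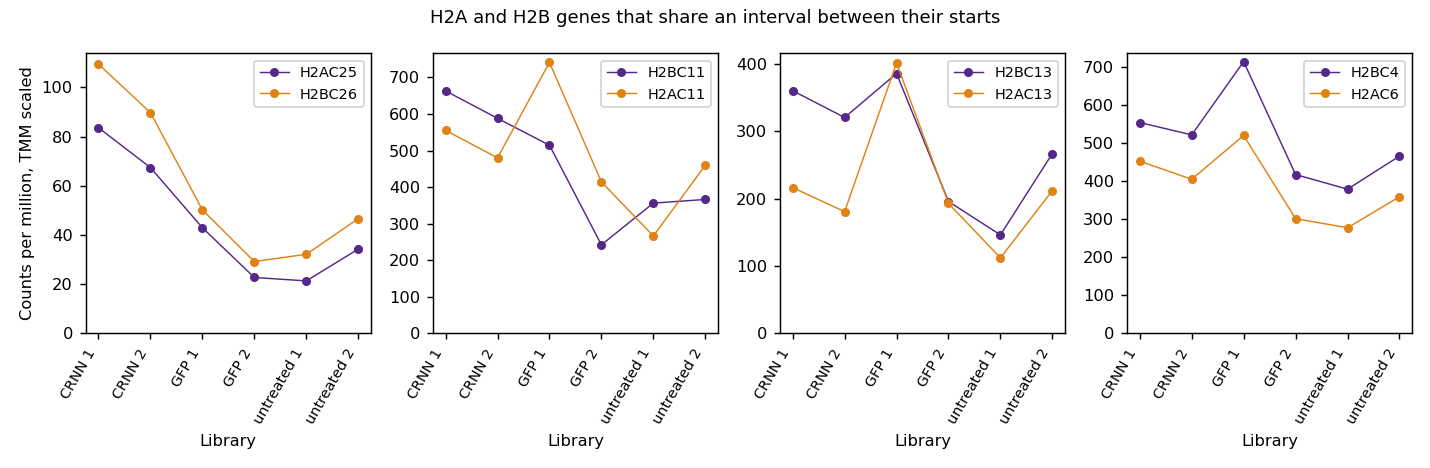
CPM (TMM scaled, linear axis from 0) of both genes of the 4 divergent H2A and H2B pairs in each library; lines only join the libraries of a gene. Both H2AC25 and H2BC26 are highest in the CRNN libraries, whereas H2AC11 and H2AC13 are highest in GFP replicate 1.

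Among the linker genes, H1-10 had 65.6 and 54.8 CPM with CRNN, 54.0 and 34.4 with GFP, and 22.2 and 36.3 untreated. The gap between the lower CRNN and the higher GFP library was small, and the log2 fold change was 0.44 (SE 0.34).

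H2BC11 (chr6:27125897-27132795) was the member of the chromosome 6 cluster with the largest positive difference from GFP. It had 663 and 588 CPM in the CRNN libraries, 515 and 242 in the GFP libraries and 356 and 366 in the untreated ones. Both CRNN libraries were above all 4 controls, but the GFP libraries differed by 2.12-fold between themselves (edgeR unadjusted p = 0.0793, adjusted p = 0.999). Without GFP replicate 1 its log2 fold change was 1.38 and without GFP replicate 2 it was 0.31.

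Of the tested members, 8 had CRNN libraries entirely above the GFP libraries (30.8%, against 19.4% of all genes) and 0 entirely below (18.7%). They included H1-10, H1-6, H2AC25, H2BC11, H2BC12L, H2BC26 and H4C16. This number includes all 6 tested members outside chromosome 6, whose median log2 fold change was 0.76 with values from 0.44 to 1.32. The 20 tested members on chromosome 6 had a median of -0.01, with 9 above 0. Without GFP replicate 1, which was the highest library for 18 of these 20 and for 0 of the 6 elsewhere, the medians were 0.60 on chromosome 6, with 20 of 20 above 0, and 1.14 elsewhere. Without GFP replicate 2 they were -0.42 and 0.57. The places also differ in the type of transcript. Every tested member on chromosome 6 has the stem-loop. Those elsewhere include H1-10 and H2BC12L, which lack it, and H2AC25, H2BC26 and H4C16, which have it. No test of the difference between the places was made.

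The lowest values against GFP belonged to H2AC13 (-0.58, SE 0.42), H1-5 (-0.40, SE 0.44), H3C4 (-0.40, SE 0.40) and H2BC5 (-0.32, SE 0.39), all on chromosome 6 and all overlapping between the groups. H2AC13 had 216 and 181 CPM with CRNN against 401 and 193 with GFP. H1-5, a main S-phase linker histone, had 466 and 375 CPM against 750 and 360. H3C4, an H3 gene, had 342 and 280 against 553 and 268. In H1-5, H3C4 and H2BC5 the GFP libraries enclosed the CRNN libraries, and in all 4 genes GFP replicate 1 was the highest library. Without GFP replicate 1 all 4 values were above 0, from 0.05 to 0.36.

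**Figure D3:**
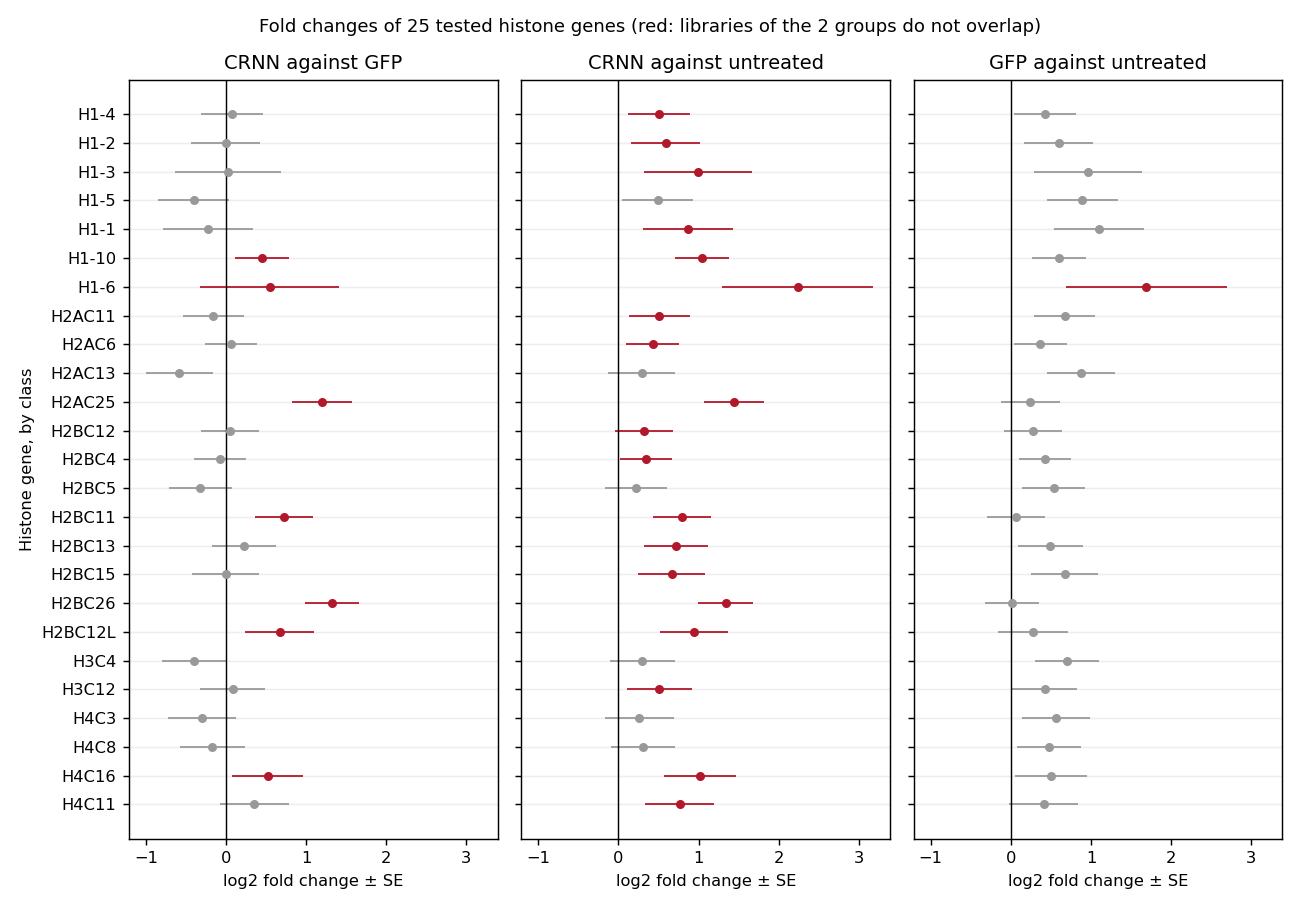
Log2 fold change of 25 of the 26 tested histone genes with its standard error in the 3 comparisons, red where the libraries of the groups do not overlap. The 25 genes drawn lie above 0 against untreated cells for both CRNN and GFP, none passed after adjustment, and the values of H2BC26 and H2BC11 in GFP against untreated cells were below 0 under other settings.

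Against untreated cells every tested member had a positive difference in the CRNN libraries, again without a call. By edgeR 0 of 26 were higher and 0 lower, against 0.0061% of all genes higher (1 gene) and 0% lower. At an unadjusted p under 0.05, 5 were higher (1.52% of all genes) and 0 lower (2.96%), among them H1-10, H1-6, H2AC25 and H2BC26. DESeq2 and limma-voom called 0 members, each with 7 at an unadjusted p under 0.05, against 4.43% and 3.35% of all genes in either direction. All 26 log2 fold changes were above 0, against 49.1% of all genes, with a median of 0.63 against -0.01 over all genes. In 20 members (76.9%) the libraries did not overlap, against 18.7% of all genes in that direction. Without untreated replicate 1 the median was 0.27 and 22 of 26 were above 0. Without untreated replicate 2 it was 1.02, and 26 of 26 were above 0. In that fit untreated replicate 1 stands alone for its group and is assumed to vary like the libraries of the other groups.

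By class the medians against untreated cells were 0.88 for H1, 0.47 for H2A, 0.69 for H2B, 0.40 for H3 and 0.53 for H4. H2AC25 had a log2 fold change of 1.44 (SE 0.37; edgeR unadjusted p = 0.00408, adjusted p = 0.989) and H2BC26 1.34 (SE 0.34; edgeR unadjusted p = 0.00358, adjusted p = 0.989). H1-10 had 1.04 (SE 0.34), and H4C16, the single H4 gene on chromosome 12, had 1.02 (SE 0.45). H4C16 stood at 238 and 201 CPM with CRNN, 196 and 110 with GFP, and 61.8 and 154 untreated. H1-6 had the largest value, 2.23 (SE 0.94), on 0.816 and 0.713 CPM with CRNN against 0 and 0.320 untreated, the lowest level of the tested members. Without untreated replicate 1, in which it had no count, the value was 1.24.

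Among tested members with counts in both untreated libraries, the S-phase linker genes H1-3 and H1-1 had the highest ratios of untreated replicate 2 to replicate 1, 5.46 and 3.93. H1-3 had 595 and 487 CPM with CRNN, 726 and 337 with GFP, but 84.4 and 461 in untreated replicates 1 and 2. H1-1 had 105 and 89.7, 149 and 78.9, and 21.6 and 84.9 in the same order. In both genes a single library, untreated replicate 1, stood far below the other 5. The log2 fold changes against untreated cells were 0.99 for H1-3 (SE 0.67) and 0.87 for H1-1 (SE 0.56) in CRNN. H1-2 and H1-4, the most abundant linker genes, had 0.59 (SE 0.43) and 0.51 (SE 0.39). H1-2 stood at 1235 and 1010 CPM with CRNN, 1561 and 693 with GFP, and 546 and 945 untreated, so that the GFP libraries enclosed all others but 1.

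GFP against untreated cells, the comparison of the vector with no virus, also gave a positive value for all 26 members (48.9% of all genes), with a median of 0.50 against -0.01. By edgeR 0 of 26 were higher or lower, where 0% of all genes passed in either direction, and 0 members had an unadjusted p under 0.05 (4.03% of all genes higher, 2.90% lower). DESeq2 called 0 members with 0 at an unadjusted p under 0.05, and limma-voom called 0 with 2, against 6.72% and 6.13% of all genes. Only H1-6 had libraries that did not overlap (3.85% of members, against 16.2% of all genes in that direction). The largest values after H1-6 (1.69, SE 1.00) were those of H1-1 (1.10, SE 0.57), H1-3 (0.96, SE 0.67) and H1-5 (0.89, SE 0.45). Without untreated replicate 1 H1-6 was at 0.68, H1-1 at 0.40 and H1-3 at 0.19, and without GFP replicate 1 H1-5 was at 0.26. Without untreated replicate 2 H1-1 was at 2.39, H1-3 at 2.64 and H1-5 at 1.51. Among the smallest were those of H2BC26 (0.01) and H2BC11 (0.07), which had some of the largest differences between CRNN and GFP. Both changed sign under other settings. The comparisons share libraries, so their values are not independent of each other. Without GFP replicate 1 the median was -0.09 and 11 of 26 were above 0, and without GFP replicate 2 it was 0.90. Leaving out untreated replicate 2 gave a median of 0.84, with 1 untreated library.

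The histone genes also differed between the replicates of a group. GFP replicate 1 was the highest of the 6 libraries in 18 of 26 members (69.2%, against 23.3% of all genes), all of them on chromosome 6. Untreated replicate 1 was the lowest in 20 (76.9%, against 26.3% of all genes). CRNN replicate 1 was highest in 6 (8.24% of all genes) and CRNN replicate 2 in 2 (13.9%), while GFP replicate 2 was lowest in 6 (21.3%). Untreated replicate 2 was highest in 0 (8.17%) and lowest in 0 (7.94%).

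GFP replicate 1 exceeded replicate 2 by a median of 2.07-fold, with the highest ratio, 2.65-fold, in H4C11, and the ratio was above 1 in 25 of 26 members, where the median over all genes was 1.00. Untreated replicate 2 exceeded replicate 1 by a median of 1.61-fold, from 1.03-fold in H2BC11 to 5.46-fold in H1-3, in all 25 members with a value. The CRNN replicates were closest, with a median ratio of 1.18 and a highest of 1.24.

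The GFP libraries enclosed both CRNN libraries in 17 of the 20 tested members on chromosome 6 and in 0 of the 6 elsewhere, against 31.5% of all genes. The 3 on chromosome 6 that they did not enclose were H1-6, H2AC13 and H2BC11. As examples, H4C3, an H4 gene, had 411 and 366 CPM with CRNN, 680 and 275 with GFP, and 255 and 393 untreated. H2BC12 had 781 and 666, 946 and 456, and 568 and 593, and its untreated libraries were nearly equal. H4C8 had 286 and 238, 408 and 181, and 171 and 252.

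The other parts of the histone pathway were read from lists of genes. Each level below is the mean log2 CPM of a list after centring each gene on its mean over the 6 libraries. The histone members stood at 0.45 and 0.24 in the CRNN libraries, 0.56 and -0.37 in the GFP libraries and -0.83 and -0.04 in the untreated libraries. Genes of histone transcription and 3′ processing stayed between -0.15 and 0.09, histone mRNA turnover between -0.13 and 0.09, and histone chaperones between -0.20 and 0.09. In all 3 of these lists GFP replicate 1, the highest library for the histone genes, was the lowest. S phase genes stayed between -0.11 and 0.10.

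**Figure D4:**
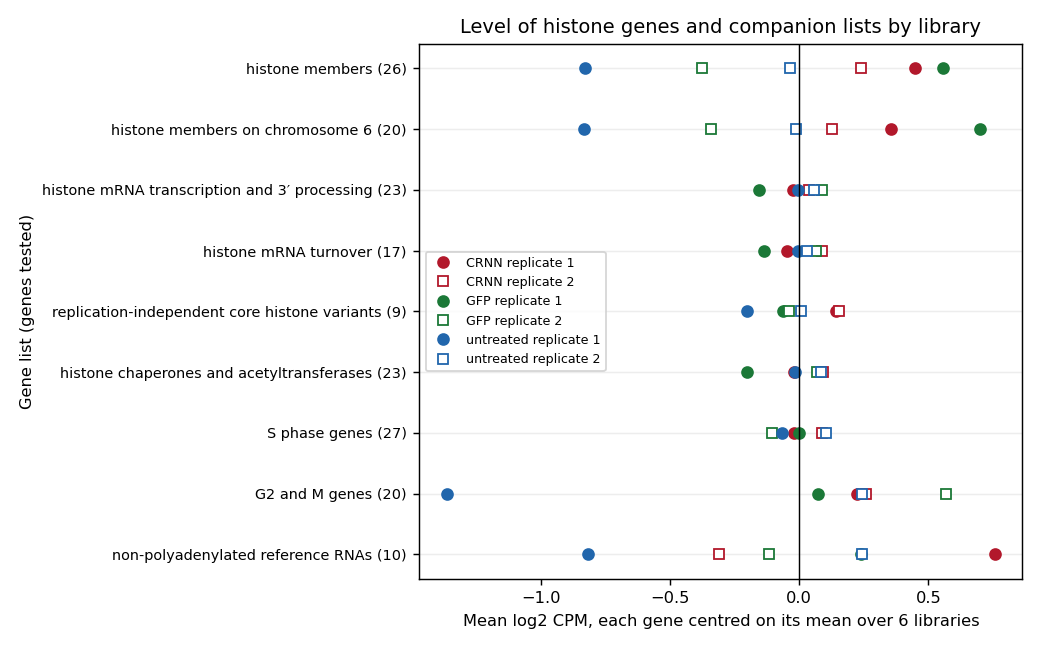
Mean centred log2 CPM of the tested histone genes and of 7 companion lists in each library, with the number of tested genes in parentheses. Histone genes spread from -0.83 to 0.56, processing, turnover, chaperone and S phase genes stay within 0.21 of 0, and G2 and M genes stand at -1.36 in untreated replicate 1.

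By edgeR no gene of these lists passed in any of the 3 comparisons. Of the 23 tested transcription and processing genes, 0 were at an unadjusted p under 0.05 in CRNN against GFP or untreated, and 1 higher and 1 lower in GFP against untreated. Their medians were 0.08 in CRNN against GFP, -0.04 in CRNN against untreated and -0.16 in GFP against untreated, the order kept below. SLBP, which binds the stem-loop, had 51.9 and 59.4 CPM with CRNN, 49.1 and 46.3 with GFP, and 74.8 and 55.1 untreated. It was highest in untreated replicate 1, the library in which most histone genes were lowest. NPAT, the coactivator of histone genes in S phase, lay between 12.4 and 20.03 CPM, with overlap between all groups. LSM11, a subunit of the U7 particle that cuts histone pre-mRNA, had 23.9 and 17.5 CPM untreated against 12.9 to 15.96 CPM in the other libraries, and both untreated libraries were the highest.

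The 17 turnover genes had medians of 0.01, -0.02 and -0.03, and the 23 chaperone and acetyltransferase genes 0.03, 0.04 and -0.12, with 0 genes of either list at an unadjusted p under 0.05. The 27 S phase genes had medians of 0.09, -0.00 and -0.12, with 0, 1 and 2 genes at that level in the 3 comparisons. The last 2 went opposite ways, CCNE2 at -1.07 (SE 0.35) and TYMS at 0.77 (SE 0.31) in GFP against untreated. CCNE2, cyclin E2, had 17.6 and 9.65 CPM untreated, 7.80 and 7.76 with CRNN and 6.65 and 6.31 with GFP.

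G2 and M genes moved with the histone genes in 1 library. In untreated replicate 1 the list stood at -1.36, while the remaining libraries lay between 0.07 and 0.57. Its medians were -0.07, 0.62 and 0.69, with 7, 19 and 20 of 20 genes above 0, and 0, 1 and 2 genes at an unadjusted p under 0.05. PLK1, a mitotic kinase, had 35.2 and 106 CPM untreated, 131 and 141 with CRNN and 190 and 152 with GFP. MKI67, a marker of cycling cells, had 87.6 and 241 CPM untreated, 282 and 225 with CRNN and 337 and 775 with GFP. In GFP replicate 2 the list was at its highest and the histone genes were below their mean. Their part in the histone values was not tested.

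Variant histone genes outside the replication-dependent set were read in the same way. The 9 tested variants had medians of 0.23, 0.16 and -0.10, with 7, 9 and 2 above 0, and 0 at an unadjusted p under 0.05. The largest differences from untreated cells were those of CENPA, the centromeric H3, with 0.85 in CRNN (SE 0.42) and 0.93 in GFP (SE 0.42). It had 34.8 and 36.3 CPM with CRNN, 34.8 and 40.1 with GFP, and 10.6 and 28.8 untreated, so that both untreated libraries were lowest. H3-3B, a gene of histone H3.3, had 325 and 362 CPM with CRNN, 238 and 268 with GFP, and 367 and 314 untreated, the CRNN libraries being above GFP and within the untreated range. H3-3A had 65.6 and 81.4, 55.8 and 69.8, and 66.2 and 68.6. H2AZ1, the H2A.Z gene, had 156 and 174, 139 and 118, and 129 and 161. H2AX, whose mRNA can end in a stem-loop as well, had 94.8 and 71.6, 131 and 92.5, and 62.3 and 78.5 CPM, so that GFP replicate 1 was its highest and untreated replicate 1 its lowest library.

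Since histone mRNAs lack a poly(A) tail, other RNAs without one were set beside them. Of 19 such RNAs, 10 had a row and were tested, and edgeR called 0 of them, with none at an unadjusted p under 0.05 (0 of 10). The list stood at 0.76 and -0.31 in the CRNN libraries, 0.24 and -0.12 with GFP, and -0.82 and 0.24 untreated. As in the histone genes, untreated replicate 1 was lowest, but the highest library was CRNN replicate 1. The medians were 0.19, 0.46 and 0.26, with 9, 10 and 9 of 10 above 0. Their part in the histone values was not tested.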

How the data were processed

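The authors deposited raw counts, whole numbers of reads per Ensembl gene in 6 libraries, with no normalization. Per the submitters' processing notes, reads were handled with STAR 2.6 and HTSeq 0.6.1, beside FastQC 0.11.7, edgeR and bcl2fastq, and hg19, GRCh37 and GRCh38 are named with no role. The gene annotation used and whether counting used strand are not given in the sources used here. Names, coordinates and transcripts came from GENCODE release 44 (GRCh38), matched by identifier without version (51996 of 57820 matched), and promoters from RefSeq. The members and gene lists were chosen with earlier results of these data known.

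One fit held the 6 libraries (edgeR 4.0.16, R 4.3.3, TMM, filterByExpr with minimum count 10 and minimum total 15, quasi-likelihood F test, no covariate), which kept 16396 genes with 99.9% of the counts. P-values are two-sided and were Benjamini-Hochberg adjusted across every tested gene, with a threshold of 0.05. The standard error is the log2 fold change divided by the square root of F. Levels of lists are log2 CPM with a prior count of 2. Named genes were CRNN, the 3 most abundant members of each class, the H1 genes with counts, the members with the highest or lowest fold change or smallest p in each comparison, and the companion genes of smallest p. Other partners of divergent pairs and the extremes of the replicate ratios were named after their values were seen. The alternatives tried were no scaling factors, upper-quartile or RLE factors, no filter, 1 CPM in 2 libraries, DESeq2 1.42.0, limma-voom 3.58.1, only the groups compared, a replicate block, a spline correction (4 df) for GC content and length (97.2% of tested genes have both), both together, and each library left out. Of the tested members, 1 is counted in the totals and medians and is not reported here by itself. The fit was tested on simulated counts with 200 genes changed in the CRNN libraries. In CRNN against GFP it called 10% of 2-fold changes, 88% of 4-fold changes and 98% of 8-fold changes. False calls averaged 5.67 over 3 runs. Most 2-fold changes of single genes can therefore go uncalled by this fit. With 200 changed genes the adjusted threshold is reached at a larger p than in the real comparison, which called 3 genes. The rates for 4-fold and 8-fold changes therefore do not carry over to the histone genes.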

Additional observations from a re-analysis of the deposited data

How the results depend on the processing

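With no filter on low counts edgeR called more genes of any kind, for example 34 in CRNN against GFP, where the main fit called 3. Scaling, filter, tool and GC correction left the number of histone genes called at 0 in each comparison, except that with no filter 1 gene, H2AC25, passed in CRNN against untreated cells. The share of all genes called in that fit is not given here, so this call is not a result about the histone genes. With each library left out in turn, 1 library stands alone for its group, and members called in those fits are not counted here. The medians of the members then ranged from -0.36 to 0.68 in CRNN against GFP. They ranged from 0.27 to 1.02 in CRNN against untreated and from -0.086 to 0.90 in GFP against untreated. With some library left out, 18 of 26 members changed sign in CRNN against GFP, 4 in CRNN against untreated and 17 in GFP against untreated. Genes of the naming rule that did, with their ranges, were in CRNN against GFP H1-5 (-0.81 to 0.23), H2AC13 (-0.99 to 0.050), H2BC5 (-0.75 to 0.36) and H3C4 (-0.81 to 0.22). In CRNN against untreated they were H2AC13 (-0.092 to 0.83), H2BC5 (-0.0013 to 0.47), H3C4 (-0.030 to 0.73) and H4C3 (-0.013 to 0.61). In GFP against untreated they included H2AC25 (-0.30 to 0.61), H2BC11 (-0.58 to 0.49), H2BC26 (-0.44 to 0.33) and CRNN (-0.33 to 0.42). In GFP against untreated, values near 0 also changed sign with no filter (H2BC26 -0.031, CRNN -0.042), with limma-voom (H2BC11 -0.034, H2BC26 -0.0053) and with the GC and length correction (H2BC26 -0.031). The cause was not tested. Whether replicate numbers pair the libraries was not settled. Differences between replicates 1 and 2 correlated across 11729 genes with r = 0.26 (CRNN with GFP), r = -0.071 (CRNN with untreated) and r = 0.19 (GFP with untreated). These differences also carry the way genes follow GC content in each library, so they cannot exclude pairs. With the replicate block 0 members passed in each comparison and the medians were 0.09, 0.59 and 0.46. In GFP against untreated, H2BC11 was at -0.0096 and H2BC26 at -0.026 with the replicate block, and H2BC26 at -0.022 with the block and the GC and length correction. Genes at a few counts, such as H1-6, are limited by depth.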
